A study of Homo sapiens with 8 samples.

Results

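PEG3/ZIM2 and ZNF331 are imprinted loci on human chromosome 19, and their CpG methylation was followed in HUES64 cells, a long-used human embryonic stem cell line. The members were 85 CpGs of the 2975221 CpG positions listed in any library, and they were taken by position in 3 hg19 intervals: 40 CpGs in the PEG3/ZIM2 interval at chr19:57348493-57353271, 15 in an upstream ZNF331 interval at chr19:54040510-54042212 and 30 in a downstream ZNF331 interval at chr19:54057086-54058425. Reduced representation bisulfite sequencing (RRBS), which reads a CpG-rich fraction of bisulfite-converted DNA, was run on genomic DNA of DNMT3A/3B DKO cells, in which both DNA methyltransferase genes are knocked out. There was 1 library at each of passages 6, 7, 8, 11, 13, 17, 27 and 28, every library carried the double knockout, and cells with intact genes were not analysed here. Whether the passages belong to 1 culture or 1 clone is not said in the labels. The p-values therefore speak only of these libraries. Those of trends measure how the libraries scatter about a trend, and that scatter may be technical. Tests of single CpGs and of 1 kb tiles also draw on read counts. Sign-flip tests of levels involve no trend and treat the 8 libraries as separate units. The comparison the design allows is between later and earlier passages.

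An imprinted differentially methylated region carries methylation on the chromosome inherited from 1 parent and lacks it on the other, so it is typically read as intermediate methylation in bulk DNA. The mark is set in the germ line with the help of DNMT3A and is copied at each division mainly by DNMT1. PEG3 encodes a zinc finger protein made from the paternal chromosome, ZIM2 is a zinc finger gene next to it that shares its promoter region in humans, and ZNF331 is a zinc finger gene with alternative promoters. In the RefSeq gene order ZIM2 and PEG3 were direct neighbours, with the antisense RNA PEG3-AS1 and the long noncoding RNA MIMT1 beyond PEG3 and ZIM2-AS1 beyond ZIM2.

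RefSeq promoter windows (GRCh38.p14, plus strand, 300 bases each) were held for ZNF331, and 3 of its 6 windows could be placed on the listed CpGs. Placement required every listed CpG of a stretch of chromosome 19 to fall on a CpG of the sequence, and all 3 placements had the same offset of 503254 bases between the builds. The 3 windows are shown because 1 lay at an unmethylated start and the other 2, which overlap each other, lay inside the downstream ZNF331 interval. Capitals mark the CpGs that the deposited files list.
ZNF331 promoter 1, GRCh38.p14 chr19:53520764-53521063: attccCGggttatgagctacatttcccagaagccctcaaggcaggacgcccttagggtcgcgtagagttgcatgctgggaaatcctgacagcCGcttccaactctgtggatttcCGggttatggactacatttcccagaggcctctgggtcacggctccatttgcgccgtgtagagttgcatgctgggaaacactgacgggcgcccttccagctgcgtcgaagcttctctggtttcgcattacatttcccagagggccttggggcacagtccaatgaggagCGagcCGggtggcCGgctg
ZNF331 promoter 3, GRCh38.p14 chr19:53554363-53554662: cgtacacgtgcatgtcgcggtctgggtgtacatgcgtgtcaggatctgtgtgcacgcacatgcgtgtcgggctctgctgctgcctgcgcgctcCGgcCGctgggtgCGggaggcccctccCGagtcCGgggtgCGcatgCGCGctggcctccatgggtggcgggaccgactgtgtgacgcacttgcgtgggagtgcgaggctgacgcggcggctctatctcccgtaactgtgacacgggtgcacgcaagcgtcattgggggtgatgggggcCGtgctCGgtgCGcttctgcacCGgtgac
ZNF331 promoter 4, GRCh38.p14 chr19:53554577-53554876: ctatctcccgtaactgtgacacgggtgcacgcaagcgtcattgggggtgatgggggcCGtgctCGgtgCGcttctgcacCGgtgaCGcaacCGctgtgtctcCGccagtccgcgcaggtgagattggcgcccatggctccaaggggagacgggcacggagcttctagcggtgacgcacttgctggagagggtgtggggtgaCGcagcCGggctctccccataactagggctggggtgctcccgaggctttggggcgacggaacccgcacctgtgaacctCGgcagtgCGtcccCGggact

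The first window held 17 CpGs, of which 6 were listed, and it corresponded to hg19 positions 54024018 to 54024317. The third window held 34 CpGs and the fourth 27, against a median of 14 in the 35116 promoters of the table. In each of these 2 windows 12 CpGs were listed, at hg19 positions 54057617 to 54057916 and 54057831 to 54058130, and the next best placement of either matched 5. On both strands, TGCCGC, the hexamer bound by the imprint-protecting protein ZFP57, was in 0 of the 6 ZNF331 windows and in 16.7% of all promoters of the table. GCCAT, the core of the YY1 motif, was in 3 of the 6 (promoters 4, 5 and 6) and in 37.8% of all, and promoters 5 and 6 overlap and share the same match. Neither motif contains the other.

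The methylation level of an interval was the share of methylated reads among all reads over its CpGs. Read totals over all CpGs were between 19898423 at passage 11 and 44599588 at passage 6, and the median was 13 reads per CpG at passage 6 and 6 to 8 elsewhere. All 15 upstream and all 30 downstream ZNF331 CpGs were listed in every library, while 24 of the 40 PEG3/ZIM2 CpGs were. The upstream ZNF331 CpGs lay between 54040606 and 54041007, and no CpG was listed from there to the interval's end at 54042212. Values of that interval speak for this stretch only. A depth of 10 or more reads in all 8 libraries was reached by 4, 3 and 0 CpGs of the upstream ZNF331, downstream ZNF331 and PEG3/ZIM2 intervals. Neighbouring CpGs share reads, and removal of duplicates is not given in the sources used here, so the Wilson intervals below cover counting error only and are too narrow.

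The PEG3/ZIM2 interval was almost fully methylated up to passage 17 and lower at passages 27 and 28. It was 96.7% methylated at passage 6 (299 reads), 96.2% at passage 7 (212 reads), 92.8% at passage 8 (207 reads), 94.6% at passage 11 (147 reads), 94.9% at passage 13 (237 reads), 94.3% at passage 17 (157 reads), 83.4% at passage 27 (205 reads) and 80.9% at passage 28 (246 reads). Both last libraries lay below all others, and the 95% Wilson intervals were 77.7 to 87.9% at passage 27 and 75.5 to 85.3% at passage 28, against 89.5 to 96.96% at passage 17. The mean was 82.2% over passages 27 and 28, against 95.2% ± 2.14 (SD, n = 3) over passages 6 to 8, a difference of -13.1 points. These levels lie above the intermediate range typical of an imprinted region in bulk DNA, and the reads were not resolved by parental copy.

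With passage the PEG3/ZIM2 level fell by 0.643 ± 0.109 points per passage (SE over n = 8 libraries). Pearson's r was -0.924 (two-sided exact permutation p = 0.00776, adjusted p = 0.0233 over the trends of the 3 intervals), and Spearman's rho was -0.833 (exact permutation p = 0.0154). With passages 27 and 28 left out, being farthest from the median passage, r was -0.385 and the slope -0.130 ± 0.156 (SE over n = 6 libraries; exact permutation p = 0.458), so the trend rests on those 2 libraries. Without passage 6, 27 or 28 the slope was -0.657, -0.630 or -0.539, with adjusted p of 0.0589, 0.107 and 0.107 (exact permutation tests). Over the 24 CpGs listed in all 8 libraries the slope was -0.429 ± 0.101 (SE over n = 8 libraries, exact permutation p = 0.0122). With equal weight for each of these 24 CpGs in place of each read, it was -0.227 ± 0.104 (SE over n = 8 libraries, exact permutation p = 0.0679).

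The upstream ZNF331 interval stayed at intermediate methylation with no trend that passed the test. Its level was 51.2% at passage 6 (342 reads), 42.0% at passage 7 (174 reads), 55.7% at passage 8 (174 reads), 52.4% at passage 11 (143 reads), 32.3% at passage 13 (201 reads), 36.2% at passage 17 (152 reads), 37.6% at passage 27 (149 reads) and 56.4% at passage 28 (257 reads). Passage 28 was the highest of the 8 and passage 13 the lowest, and the adjacent passages 27 and 28 differed by more than any early pair. The mean was 47.0% over passages 27 and 28, against 49.6% ± 7.03 (SD, n = 3) over passages 6 to 8. The slope was -0.128 ± 0.446 points per passage (SE over n = 8 libraries; r = -0.116 with an exact permutation p of 0.752; rho = -0.0476 with an exact permutation p of 0.935). Over passages 6 to 17 it was -1.48 ± 0.871 (SE over n = 6 libraries; r = -0.647, exact permutation p = 0.169). Its sign turned in 5 alternatives, among them the CpGs that reached 10 reads in all 8 libraries, at 0.422 ± 0.264 (SE over n = 8 libraries; exact permutation p = 0.175).

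The downstream ZNF331 interval was also intermediate, and its 2 lowest libraries were the latest ones. It was 42.4% methylated at passage 6 (627 reads), 47.9% at passage 7 (290 reads), 38.4% at passage 8 (255 reads), 44.4% at passage 11 (261 reads), 50.8% at passage 13 (317 reads), 39.5% at passage 17 (223 reads), 29.9% at passage 27 (335 reads) and 34.5% at passage 28 (322 reads). The mean was 32.2% over passages 27 and 28, against 42.9% ± 4.77 (SD, n = 3) over passages 6 to 8, so 74.9% of the early level was kept. The slope was -0.576 ± 0.223 points per passage (SE over n = 8 libraries; r = -0.726, exact permutation p = 0.0435, adjusted p = 0.0653), which did not pass after adjustment, and rho was -0.548 (exact permutation p = 0.171). Without passages 27 and 28 r was -0.0511 and the slope -0.0588 ± 0.575 (SE over n = 6 libraries; exact permutation p = 0.914). The slope passed the adjusted threshold on omission of passage 8 (-0.677, adjusted p = 0.0387) or 13 (-0.545, adjusted p = 0.0283), and when each library contributed only its own CpGs of 10 or more reads (-0.845, adjusted p = 0.0291), by exact permutation tests. It did not on the CpGs that reached 10 reads in all 8 libraries (-0.719, adjusted p = 0.0561), and with equal weight for each CpG it was -0.285 ± 0.296 (SE over n = 8 libraries; exact permutation p = 0.368, adjusted p = 0.552).

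**Figure D1:**
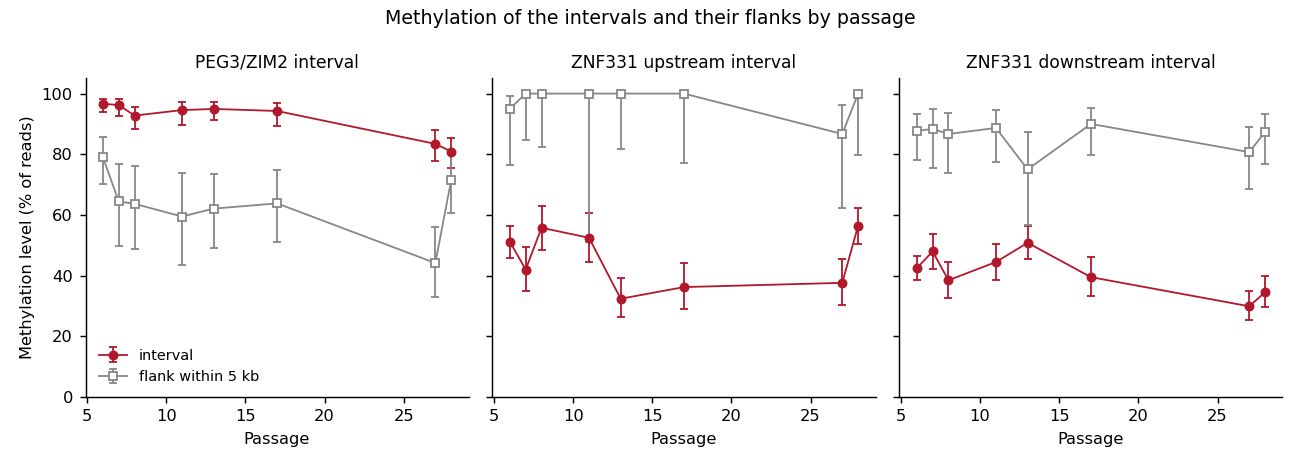
Methylation level (% of reads) on the vertical axis against passage on the horizontal axis, for each interval (filled circles) and for the CpGs within 5 kb of it (open squares), with 95% Wilson intervals as bars. Over all listed CpGs, PEG3/ZIM2 lay above its flank in 8 of 8 libraries and both ZNF331 intervals lay below theirs in 8 of 8. PEG3/ZIM2 was lowest at passages 27 and 28.

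Differences between the 3 trends were not detectable. The slope of upstream ZNF331 minus PEG3/ZIM2 was 0.516 ± 0.535 points per passage (SE over n = 8 libraries; exact permutation p = 0.371), that of downstream ZNF331 minus PEG3/ZIM2 was 0.0668 ± 0.191 (SE over n = 8 libraries; exact permutation p = 0.727), and that of upstream minus downstream ZNF331 was 0.449 ± 0.588 (SE over n = 8 libraries; exact permutation p = 0.469). The adjusted p over these 3 pairs were 0.704 to 0.727, and errors of this size leave room for differences as large as the slopes themselves. With only the CpGs that reached 10 reads in all 8 libraries, upstream minus downstream ZNF331 was 1.14 ± 0.310 (SE over n = 8 libraries; exact permutation p = 0.0111), a difference that rests on 4 and 3 CpGs.

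CpGs within 5 kb outside the intervals gave a local comparison, but they were few and lay on 1 side of each interval. PEG3/ZIM2 had 8 such CpGs, at higher coordinates, with 37 to 100 reads per library. The interval averaged 91.7% ± 6.06 and its flank 63.5% ± 9.99 (SD, n = 8 libraries), a difference of 28.2 ± 9.81 points, with the interval higher in 8 of 8 libraries (two-sided exact sign-flip permutation test, p = 0.00781, the smallest that 8 libraries allow). The flank itself was 57.8% over passages 27 and 28, against 69.0% ± 8.65 (SD, n = 3) over passages 6 to 8, but 44.1% at passage 27 and 71.4% at passage 28. In a count of 1 CpG per read block, only the most-read CpG was kept of same-strand CpGs at most 50 bases apart. The flank then had 82.4% at passage 27 and 75.5% at passage 28. At passages 6, 7 and 8 it had 76.6%, 71.4% and 75.0%, so the late fall of the flank was not seen in this count. At passages 11, 13 and 17 the flank had 68.4%, 52.2% and 54.8%, so this count was not stable, on 19 to 64 reads per library. Over all listed CpGs, the gap between interval and flank was smallest at passage 28, at 9.47 points. With 1 CpG per read block, the interval lay below its flank at passage 27, at 76.2% against 82.4%. At passage 28 it had 77.4%, against 75.5%. The mean difference was then 19.8 points (exact sign-flip permutation test, p = 0.0234).

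Both ZNF331 intervals were lower than the DNA beside them. The upstream interval averaged 45.5% ± 9.56, against 97.7% ± 4.79 over 2 flanking CpGs at lower coordinates (SD, n = 8; 4 to 21 reads per library). The downstream interval averaged 40.98% ± 6.90, against 85.5% ± 5.09 over 6 flanking CpGs at higher coordinates (SD, n = 8; 28 to 73 reads per library). The differences were -52.2 ± 9.61 and -44.6 ± 9.17 points (SD, n = 8), both with the interval lower in 8 of 8 libraries (exact sign-flip permutation test, p = 0.00781). The sign-flip tests were added after the levels had been seen.

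The trend of an interval did not differ detectably from that of its flank. The slope of interval minus flank was -0.156 ± 0.456 points per passage for PEG3/ZIM2 (SE over n = 8 libraries; exact permutation p = 0.773), 0.102 ± 0.449 for upstream ZNF331 (SE over n = 8 libraries; exact permutation p = 0.830) and -0.449 ± 0.389 for downstream ZNF331 (SE over n = 8 libraries; exact permutation p = 0.308), with an adjusted p of 0.830 for all 3. With a minimum of 5 reads per CpG, the downstream ZNF331 difference was -0.380 ± 0.0720 (SE over n = 8 libraries; exact permutation p = 0.00518, adjusted p = 0.0104). The PEG3/ZIM2 difference was 0.626 without passage 28 (exact permutation p = 0.117).

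Farther out, windows on either side of PEG3/ZIM2 were methylated too, whereas the ZNF331 intervals lay below most windows around them, as a description with no test. Pooled over passages 27 and 28, against passages 6 to 8, the 1 kb window 25 kb above the PEG3/ZIM2 centre had 92.4%, against 96.7%, and the window 15 kb below it had 49.1%, against 82.7%. Around the upstream ZNF331 centre, windows at -9 kb and +6 kb had 86.2% and 87.3% at passages 27 and 28, against 95.8% and 90% at passages 6 to 8. The window at -17 kb, with 17 CpGs, had 0.0% at passages 27 and 28 (469 reads) and 0.209% at passages 6 to 8 (955 reads). This window holds the first ZNF331 promoter shown above, where 0 of 1043 reads, summed over its CpGs, were methylated in the 8 libraries. If all these reads were independent, a level of up to 0.288% would be allowed. Neighbouring CpGs share reads, so the limit is in fact higher.

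**Figure D2:**
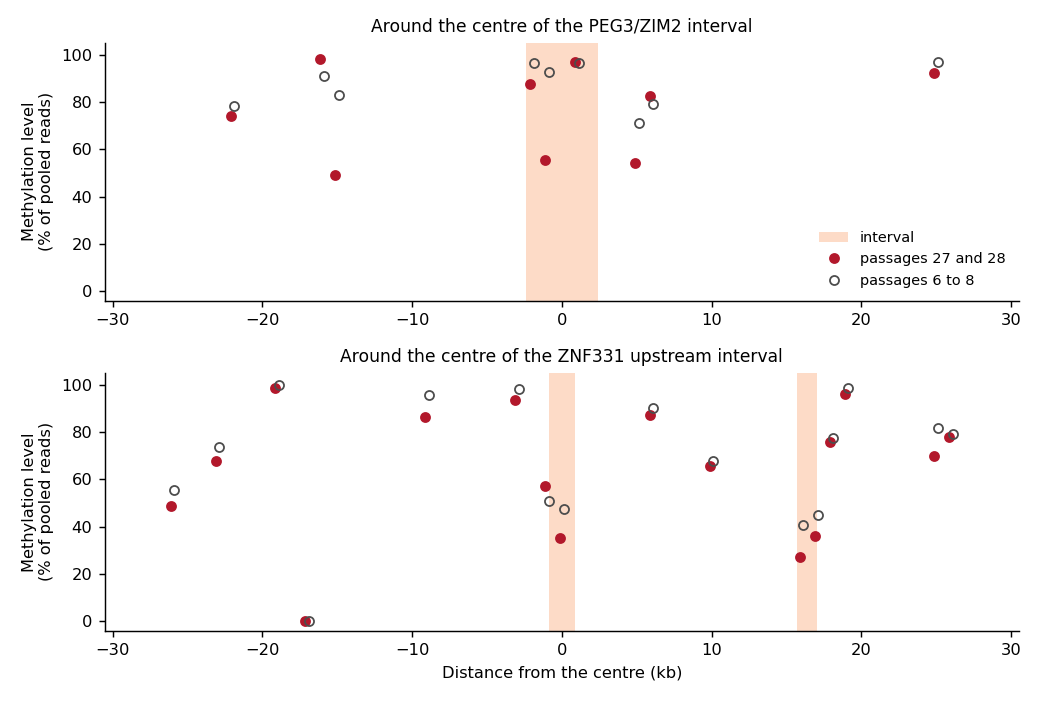
Pooled methylation level (% of reads) in 1 kb windows against the distance in kb from the centre of the PEG3/ZIM2 interval (top) and of the upstream ZNF331 interval (bottom), for passages 27 and 28 (filled) and passages 6 to 8 (open), with the intervals shaded. The ZNF331 intervals dip between methylated windows, and the window at -17 kb, which holds the first ZNF331 promoter, is at 0.0% and 0.209%.

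Within PEG3/ZIM2 the late fall was uneven along the interval. Sites closer than 100 bases were joined into clusters, of which there were 10, and the values here describe them without a test. The cluster at 57349198 to 57349311 (6 CpGs) had 87.2% at passages 27 and 28 (164 pooled reads), against 96.0% at passages 6 to 8 (225 reads). Next to it, 57349503 to 57349529 (2 CpGs) had 46.8% (47 reads), against 86.7% (30 reads). The cluster at 57350074 to 57350097 (3 CpGs) had 36.0% (25 reads), against 87.9% (58 reads), and its late libraries differed, with 23.5% at passage 27 (17 reads) and 62.5% at passage 28 (8 reads). These 3 clusters were lower in the pooled late reads, the last 2 on few reads.

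Some other stretches of PEG3/ZIM2 kept full or nearly full methylation, but not all did. The cluster at 57350348 to 57350373 (4 CpGs) was at 100% in every library, on 12 late and 42 early reads summed over its CpGs. Each of these CpGs had only 3 late reads, and neighbouring CpGs share reads. That at 57351568 to 57351706 (9 CpGs) had 96.7% (90 reads) at passages 27 and 28, against 95.0% (161 reads) at passages 6 to 8, and that at 57351426 to 57351452 (6 CpGs) had 95.8% (48 reads), against 98.3% (116 reads). The cluster at 57349808 to 57349842 (4 CpGs) was lower in the pooled late reads, at 64.1% (39 reads), against 96.6% (29 reads) at passages 6 to 8. It was split between the late libraries, with 100% at passage 27 (5 reads) and 58.8% at passage 28 (34 reads). Among single CpGs, 17 of 40 were at 100% in every library that listed them. These include 57352018 and 57352021, which had no read at passages 27 and 28. In the pooled reads of passages 27 and 28, 22 CpGs were at 100%, on as few as 2 reads at 57350096. There 3 CpGs were under 50%, and 3 of the 40 had no read. The CpG at 57349503 went furthest, with 16.7% at passage 27 (12 reads) and 20% at passage 28 (10 reads), against 100% at each passage from 6 to 17 (1 to 7 reads each); it was named after its values were seen.

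**Figure D3:**
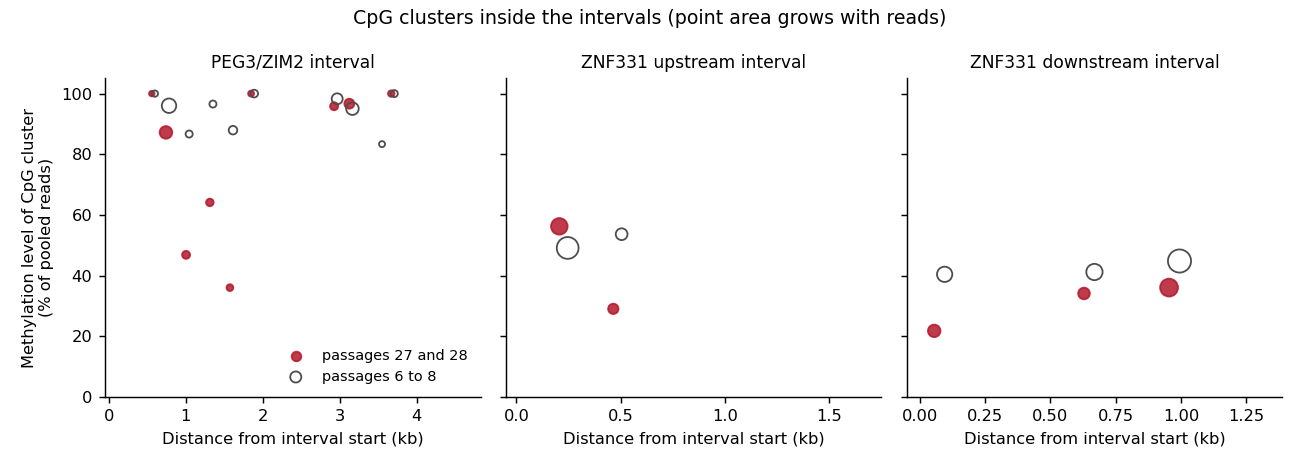
Pooled methylation level (% of reads) of CpG clusters against distance in kb from the start of each interval, for passages 27 and 28 (filled) and passages 6 to 8 (open), with point area growing with reads. In PEG3/ZIM2 the late points at 46.8%, 64.1% and 36.0% lie far below the early ones, while the clusters beyond 2.5 kb with late reads stay at 95.8% or more.

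Clusters of the ZNF331 intervals varied between libraries in both directions. In the upstream interval, the cluster at 54040606 to 54040866 (12 CpGs) was lowest at passage 7, with 38.0%, and highest at passage 28, with 63.4%. The cluster at 54040982 to 54041008 (3 CpGs, 24 to 66 reads) had 53.0%, 53.3%, 55.6%, 87.5%, 0.0%, 10%, 14.7% and 36.4% from passage 6 to passage 28. Neighbouring CpGs share reads, and how many molecules lie behind these values is not known. The CpG at 54040860 was at 100% in all 8 libraries, on 21 reads in all, and was named after its values were seen. In the downstream interval, 23 of 30 CpGs had a lower and 6 a higher pooled level at passages 27 and 28 than at passages 6 to 8, while in the upstream interval 8 of 15 were lower and 6 higher. These CpGs form only 10 and 6 read blocks. The share of all listed CpGs that were lower was not counted, so these counts are not set apart from it.

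The downstream ZNF331 clusters moved out of step. That at 54057086 to 54057235 (7 CpGs) had 71.4% at passage 17 and 20.8% at passage 8. That at 54057710 to 54057759 (8 CpGs) had 66.1% at passage 13 and 27.5% at passage 17. The largest, at 54057888 to 54058233 (15 CpGs, 106 to 353 reads), lay between 33.1% at passage 27 and 56.8% at passage 13. The third promoter window shown above had 37.8% at passages 27 and 28 (185 reads), against 39.5% at passages 6 to 8 (418 reads), and the fourth had 32.5% (292 reads), against 42.7% (525 reads).

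Tiles of 1 kb were tested across all autosomes by quasi-binomial regression on passage with limma's moderated dispersion, and a call required both an adjusted p below 0.05 and a fitted difference of 10 points or more between passages 28 and 6. When every listed CpG counted and a tile needed 20 reads in each library, 1 of the 2 tested PEG3/ZIM2 tiles lost methylation, against 28.7% of all 146893 tested tiles. The called tile, 57349001 to 57350000 (13 CpGs, 54 to 150 reads), had 97.5%, 95.1%, 92.4%, 90.7%, 92.2%, 93.8%, 80.2% and 74.0% from passage 6 to passage 28. Its fitted change was -19.6 points (adjusted p = 0.000165). It was still called without any single library (adjusted p at most 0.0136) and with limma on logit levels (-18.1 points, adjusted p = 0.00897), but not over passages 6 to 17 (-10.9 points, adjusted p = 0.681) nor on the 3 of its CpGs that reached 5 reads in all 8 libraries (-7.76 points, adjusted p = 0.164).

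The PEG3/ZIM2 tile at 57351001 to 57352000 (15 CpGs, 53 to 124 reads) had 97.6%, 100%, 92.1%, 96.2%, 97.5%, 92.5%, 100% and 92.9% from passage 6 to passage 28, and the fit moved it by -0.909 points (adjusted p = 0.859 by the quasi-binomial fit). The slope of the tile at lower coordinates minus that at higher coordinates was -0.811 ± 0.206 points per passage (SE over n = 8 libraries; r = -0.850 with an exact permutation p of 0.0217; rho = -0.524 with an exact permutation p of 0.197), in a test added after the values were seen. It lost the threshold without passage 27 (-0.684) or passage 28 (-0.745; exact permutation p = 0.0863 for each) and with 1 CpG per read block (-0.823, exact permutation p = 0.137), and over passages 6 to 17 it was 0.0785 (exact permutation p = 0.801). Between these tiles, 57350001 to 57351000 (7 CpGs) had too few reads for the test, with 48.0% at passage 27 (25 reads) and 75.0% at passage 28 (12 reads), against 90.9 to 95.0% at passages 6 to 8 (22 to 40 reads).

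**Figure D4:**
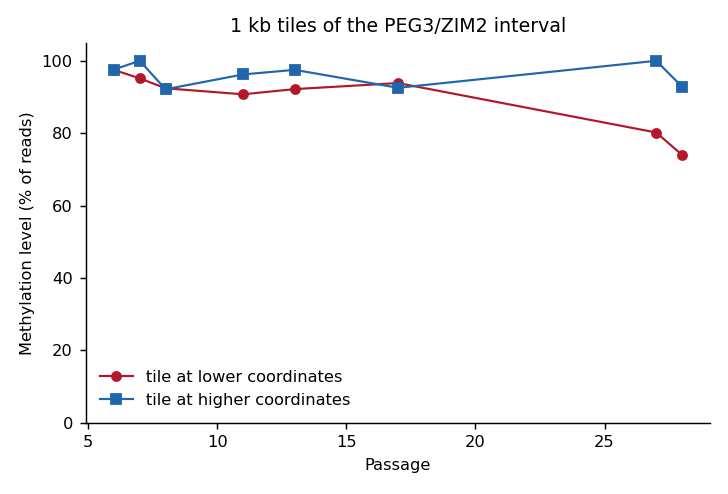
Methylation level (% of reads) on the vertical axis against passage, for the PEG3/ZIM2 tile at 57349001 (circles, lower coordinates) and that at 57351001 (squares, higher coordinates). The 2 tiles run together to passage 17 and part at passages 27 and 28, where the first is at 80.2% and 74.0% and the second at 100% and 92.9%.

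No ZNF331 tile was called on this setting (0 of 3, against 28.7% of all tiles). By the quasi-binomial fit, 1 of the 3 had an unadjusted p under 0.05, against 57252 of all 146893 tiles tested. With limma on logit levels 0 of 3 were called, against 16.4% of all tiles. Counts over so few tiles are not set apart from these shares. Fitted changes were 1.23 points at 54040001 to 54041000 (adjusted p = 0.910, limma's moderated dispersion), -12.5 points at 54057001 to 54058000 (adjusted p = 0.123) and -11.3 points at 54058001 to 54059000 (adjusted p = 0.167). The second of these was called without passage 8, at -15.7 points (adjusted p = 0.0277). On CpGs that reached 10 reads in all 8 libraries, the setting with 47.6% of tiles called, only the upstream ZNF331 tile could be tested, on 4 CpGs, at 9.66 points (adjusted p = 0.202).

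Single ZNF331 CpGs that reached this depth gave no call (0 of 7 by the quasi-binomial fit with limma's moderated dispersion), against 37.4% of all 90260 CpGs tested. By this fit 0 of the 7 had an unadjusted p under 0.05, against 41045 of the 90260. With limma on logit levels 0 of 7 were called, against 11.2% of all CpGs. In the upstream interval, 54040699 had the most reads, 270, and had 60.7% at passages 27 and 28, against 52.4% at passages 6 to 8 (means). The next, 54040726 with 169 reads, had 54.7%, against 35.95%. The lowest late means there were 42.7% at 54040818, against 45.0% early, and 43.4% at 54040865, against 32.8%. In the downstream interval, 54058124 with 228 reads had 43.1% at passages 27 and 28, against 53.0% at passages 6 to 8, 54057150 with 187 reads had 20.5%, against 43.7%, and 54058038 had 16.6%, against 26.5%. At a minimum of 5 reads, 1 of 23 CpGs of the 3 intervals was called, against 29.7% of all, the PEG3/ZIM2 site 57349295. It had 68.4% at passage 27 and 64.3% at passage 28, against 100% at passages 6 to 8, and the fit moved it by -34.8 points (adjusted p = 0.00443 by the quasi-binomial fit).

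Set beside all 1 kb tiles of like starting level, the loss over the whole PEG3/ZIM2 interval was on the large side of the class mean. Losses over the whole ZNF331 intervals were on the small side, as a description with no test. The intervals are longer than a tile, so the units differ. The 23658 tiles that started at 90% or more averaged 86.0% at passages 27 and 28, against 93.7% at passages 6 to 8, with a 10th percentile of 72.8%. PEG3/ZIM2 as a whole had 82.2%, against 95.2%. Its tile at 57349001 had 80.2% and 74.0% at passages 27 and 28, below the class mean. The tile at 57351001 had 100% and 92.9%, above it. The 11689 tiles that started between 40 and 60% averaged 26.9%, against 51.0%, with a median of 25.3% and a 90th percentile of 52.4% at passages 27 and 28. Upstream ZNF331 had 47.0% and downstream ZNF331 32.2% at those passages.

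Other imprinted regions were compared through a list of 24 intervals from general knowledge, of which 15 had at least 50 reads in every library. Their mean was 33.0% over passages 27 and 28, against 46.5% ± 0.765 (SD, n = 3) over passages 6 to 8, and 12 of the 15 were lower at passages 27 and 28, 4 of them by at least 10 points. The median change was -6.50 points, and the fall of the mean was weighted by NNAT (-63.5 points) and WRB (-69.8 points; 6.12%, against 75.9%). The slope of an interval minus that of this mean was 0.0195 ± 0.0765 points per passage for PEG3/ZIM2 (SE over n = 8 libraries; exact permutation p = 0.795), 0.535 ± 0.511 for upstream ZNF331 (SE over n = 8 libraries; exact permutation p = 0.339) and 0.0862 ± 0.175 for downstream ZNF331 (SE over n = 8 libraries; exact permutation p = 0.620), with an adjusted p of 0.795 for all 3. With equal weight for each CpG listed in all 8 libraries, the PEG3/ZIM2 difference was 0.406 ± 0.139 (SE over n = 8 libraries, exact permutation p = 0.0188, adjusted p = 0.0563). No interval was shown to differ in trend from the mean of the other imprinted regions after adjustment, which does not show that they act alike.

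Early levels of 80% or more, as at PEG3/ZIM2, were found in 3 of the 15 other regions, and levels between 30 and 60%, as at both ZNF331 intervals, in 8. Likeness was ranked among these 15 only. Of the 7 regions under 50 reads, IGF2R had 98.1%, 98.5% and 95.7% at passages 6, 7 and 8. It had 98.8% at passages 27 and 28, with 35 reads at passage 11. PPIEL had 81.3%, 100% and 96.6% at passages 6, 7 and 8, then 62.5% and 81.4% at passages 27 and 28. By Euclidean distance over the 8 libraries, the regions most like PEG3/ZIM2 were RB1 (10.7 points; 85.4% at passages 27 and 28, against 91.9% at passages 6 to 8, and so for the values that follow), GPR1-AS (17.8 points; 89.5%, against 89.8%) and NNAT, which is far from it at 91.4 points (20.4%, against 84.0%). Downstream ZNF331 was nearest to KCNQ1OT1 (12.4 points; 31.0%, against 40.2%), PLAGL1 (14.3 points; 30.9%, against 41.1%) and MEST (17.2 points; 30.3%, against 39.3%). Upstream ZNF331 had no region as near, with H19 at 29.5 points (42.7%, against 45.3%), GNAS-XL at 32.1 (39.3%, against 41.8%) and MCTS2 at 36.2 (37.3%, against 36.7%).

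**Figure D5:**
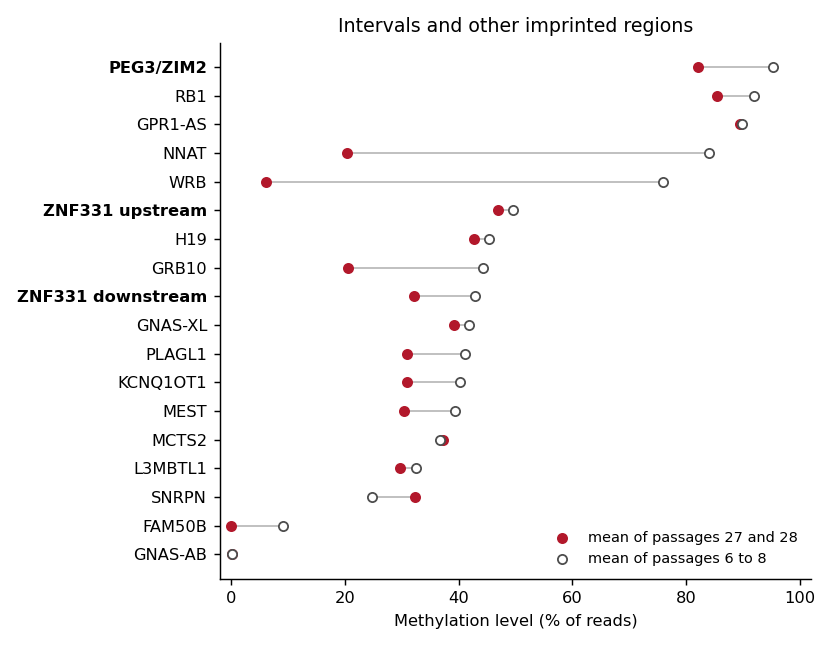
Mean methylation level (% of reads, horizontal axis) over passages 27 and 28 (filled) and over passages 6 to 8 (open) for the 3 intervals (bold) and the 15 other imprinted regions, ordered by early level. Among the regions shown PEG3/ZIM2 starts highest, at 95.2%, and the ZNF331 intervals lie among the intermediate regions.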

How the data were processed

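RRBS data of 8 DNMT3A/3B DKO libraries were used, 1 per passage. Each deposited file lists CpGs with methylated over total read counts, and a score that was checked to be 1000 times their share; neither carries a normalization. Positions are of hg19, per the submitters' processing notes. Which aligner, caller and filters were used is not given in the sources used here.

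Reads were summed over each interval and divided. Trends were fitted by least squares on passage (numpy 2.4.6) and tested over all orders of the libraries used, 40320 for 8 libraries and 720 for 6. Benjamini-Hochberg adjustment ran over the 3 results of a family, or over fewer where an alternative gave no value for some. This was so for flank differences at 5 reads and for slopes on CpGs with 10 reads in every library. Tiles and CpGs were fitted genome-wide in R 4.3.3 with limma 3.58.1 (dispersion at least 1, at least 10 reads of each state, tiles of at least 3 CpGs). In simulated data for the 11743 tiles of CpGs with at least 10 reads, 98% of 40-point and 36% of 20-point changes were recovered, with 5 false calls. The changes were planted in tiles of intermediate level only. Tiles of every listed CpG, the setting of the PEG3/ZIM2 call, were not simulated, so these rates do not cover that call.

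The members, lists and tests were chosen with earlier results of these data known. Named were the intervals, flanks, tested tiles, the CpGs with most reads or extreme late levels among those with at least 10 reads in every library, and the 3 nearest imprinted regions. Coordinates of the other imprinted regions were not checked against an annotation. Where CpGs were given equal weight, only those listed in all 8 libraries entered. Alternatives were coverage minimums, CpG sets, an upper coverage limit, equal weights, a log2 passage scale, passages 6 to 17, flank widths, limma on logit levels, no minimum change and omission of each library; counting 1 CpG per read block, tiles of every listed CpG, the difference of the PEG3/ZIM2 tiles and the level differences from flanks were added later.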

Additional observations from a re-analysis of the deposited data

How the results depend on the processing

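Of 285 values of the main results under alternatives, 232 kept direction and side of the threshold (counts within 1.5 times), 8 lost the threshold, 5 passed it newly, 32 changed sign and 8 counts moved; all reversed slopes were on the failing side of the test in the main fit, except that of the PEG3/ZIM2 tiles. The causes were not tested unless fewer CpGs or libraries enter by construction. Mean level differences from flanks kept sign and call in every alternative run. With 1 CpG per read block, however, PEG3/ZIM2 lay below its flank at passage 27.

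The upstream ZNF331 slope was 0.0579 at 10 reads, 0.422 on CpGs with 10 reads in every library and 0.235 with 1 CpG per read block; downstream ZNF331 was -0.845 at 10 reads (a minimum within each library, here and below). The PEG3/ZIM2 slope was -0.227 with equal weights and -0.130 over passages 6 to 17. Minus its flank, upstream ZNF331 was -0.490 on log2 passage and -1.73 over passages 6 to 17; downstream ZNF331 was -0.380 at 5 reads and 0.143 over passages 6 to 17; PEG3/ZIM2 was 0.238 on CpGs in all 8 libraries, 0.333 with equal weights and 0.731 over passages 6 to 17. Upstream ZNF331 minus PEG3/ZIM2 was -1.35 over passages 6 to 17. Downstream ZNF331 minus PEG3/ZIM2 was -0.00394 at 10 reads, -0.148 on CpGs in all 8 libraries and -0.0572 with equal weights. Upstream minus downstream ZNF331 was 1.14 on CpGs with 10 reads in every library and -1.42 over passages 6 to 17. Minus the mean of the other imprinted regions, upstream ZNF331 was -1.41 over passages 6 to 17; downstream ZNF331 was -0.233 at 10 reads and -0.601 on CpGs with 10 reads in every library; PEG3/ZIM2 was -0.0827 at 5 reads, -0.230 at 10 reads, -0.0639 over passages 6 to 17 and -0.222 with 1 CpG per read block. Among values that kept their sign and side but moved by more than 1.5 times, equal weights gave -0.285 for the downstream ZNF331 slope, -0.109 for it minus its flank, 0.174 for upstream ZNF331 minus PEG3/ZIM2, and 0.406 and 0.349 for PEG3/ZIM2 and downstream ZNF331 minus the other imprinted regions. CpGs in all 8 libraries gave 0.206 for PEG3/ZIM2 minus those regions. Counting 1 CpG per read block gave -1.09 for PEG3/ZIM2 minus its flank and 1.09 for upstream ZNF331 minus PEG3/ZIM2. The difference of the PEG3/ZIM2 tiles was -0.823 with 1 CpG per read block and 0.0785 over passages 6 to 17.

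On omission of single libraries, slopes were -0.721 to 0.124 (upstream ZNF331), -0.677 to -0.417 (downstream ZNF331) and -0.694 to -0.539 (PEG3/ZIM2). Minus flanks they were -0.239 to 0.308, -0.554 to -0.344 and -0.675 to 0.626 in that order. Pairs ranged over -0.182 to 0.754 (upstream ZNF331 minus PEG3/ZIM2), -0.0940 to 0.212 (downstream ZNF331 minus PEG3/ZIM2) and -0.0884 to 0.698 (upstream minus downstream). Minus the other imprinted regions, the ranges were -0.0818 to 0.706, 0.00654 to 0.177 and -0.0709 to 0.101, again upstream, downstream and PEG3/ZIM2. The tile difference was -0.894 to -0.684. Of the 8 sign changes among differences, 6 came on omission of passage 28, 1 of passage 8 and 1 of passage 27.

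Tiles losing methylation numbered 5593 of 11743 tested, with 26583 of 78387 at 5 reads, 161 of 701 at 20 reads, 2164 of 11490 over passages 6 to 17 and 42176 of 146893 with every listed CpG. Single CpGs losing methylation numbered 33751 of 90260 tested, with 104928 of 353381 at 5 reads, 2812 of 10093 at 20 reads and 8374 of 74987 over passages 6 to 17. Without single libraries the losses numbered 4520 to 5664 tiles and 21471 to 34415 CpGs. Of 161 values of tiles and CpGs in the intervals, 157 kept their side. Some alternatives gave no value, such as PEG3/ZIM2 on CpGs with 10 reads in every library and most flanks at 10 reads. Depth limits all of this: no PEG3/ZIM2 CpG had 10 reads in every library. No paired analysis was possible because a passage never had more than 1 library.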
